A study of Mus musculus with 10 samples.

Results

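Lyve1, Ptprb and Heg1 are known as genes of endothelium and Cd163 as a gene of macrophages, and they were chosen by symbol. Every probe set that the platform annotation gives exactly 1 of these symbols was taken. That gave 5 probe sets of the 12411 probe sets tested, and 4 genes of 7542 with a probe set of 1 symbol. Ptprb had 2 probe sets (the brighter 116584_at and the dimmer 104815_at), and Lyve1 (163511_at), Heg1 (112729_at) and Cd163 (115652_at) had 1 each. The genes were picked with earlier results of these arrays known, in which they stood higher in SREBP-1a transgenic liver. Their values in the transgenic study are therefore given as a description, without a test. The Scap study shares no array with that choice, and there they were tested.

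RNA was measured in male mouse liver on Affymetrix MG_U74Bv2 arrays. TgSREBP-1a mice overexpress the nuclear, transcriptionally active form of human SREBP-1a, and TgSREBP-2 mice that of human SREBP-2. Their wild type littermates and both lines were 12 to 16 weeks old and were fed for 2 weeks on high-protein, low-carbohydrate food, which served to drive the transgenes. The sources used here do not name the promoter. Scap-/- mice carry MX1-Cre and lack SCAP in liver. They and their wild type controls were 10 to 12 weeks old, ate Teklad chow, and had 4 intraperitoneal injections of polyinosinic-polycytidylic acid, with livers taken 14 days after the last. MX1-Cre responds to interferon and is known to act in blood-derived and other cells besides hepatocytes, and the wild type controls of the Scap study received the inducer too. In each of the 5 groups the RNA of 5 mice was combined into 1 pool, which was hybridised to 2 arrays. Every standard error and p-value below thus measures the spread between hybridisations of a pool, not between mice.

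SREBPs are transcription factors that switch on genes for making cholesterol and fatty acids, and their precursors need SCAP to reach the Golgi and be activated. Liver sinusoids are lined by a fenestrated endothelium that clears hyaluronan and other waste from blood, and Kupffer cells, the resident macrophages, sit on it. Lyve1 encodes a hyaluronan receptor of sinusoidal and lymphatic endothelium. Ptprb encodes VE-PTP, a receptor phosphatase of endothelium that acts on TIE2 and on the VE-cadherin junction. Heg1 encodes a membrane receptor of endothelium that binds the CCM protein KRIT1. Cd163 encodes the macrophage receptor that takes up haptoglobin-hemoglobin complexes. In bulk liver RNA, more cells of a type and more RNA per cell cannot be told apart. Nor can the cells that held the RNA be named, hepatocytes included.

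Duplicate arrays correlated between 0.987 and 0.994 over all probe sets. Of the 10 arrays, 5 were closer to an array of another group than to their own duplicate: all 4 of the Scap study, and the second TgSREBP-2 array, which was closest to wild type array 2 of the transgenic study. For the 4 genes, values with 1 of these arrays left out are given below. The array medians lay between 5.63 and 5.66 on the log2 scale. Lyve1 and the dimmer Ptprb probe set read below the median on all 10 arrays. Cd163 read below it on 8 arrays, the exceptions being the TgSREBP-1a pair, while Heg1 and the brighter Ptprb probe set read above it throughout.

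Promoter windows were found for only 2 of the 4 genes, Heg1 and Cd163, and both are shown. They come from RefSeq (GRCm38.p6) and run from 250 bases before the gene start to 50 after it, both on the plus strand. Capitals mark matches to any of the 5 motifs searched on both strands: the sterol regulatory element TCACNCCAC, the E-box CACGTG, the NF-Y box CCAAT, the Sp1 box GGGCGG and the PU box GAGGAA. The Heg1 window lies at chr16:33684216-33684515 and the Cd163 window at chr6:124304401-124304700.
Heg1: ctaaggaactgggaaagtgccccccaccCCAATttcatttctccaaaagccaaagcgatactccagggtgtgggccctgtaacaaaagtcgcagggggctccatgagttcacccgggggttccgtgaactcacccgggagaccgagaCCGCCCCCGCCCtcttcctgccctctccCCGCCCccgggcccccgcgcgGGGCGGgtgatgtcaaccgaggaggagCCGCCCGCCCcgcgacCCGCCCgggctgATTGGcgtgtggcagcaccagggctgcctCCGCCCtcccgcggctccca
Cd163: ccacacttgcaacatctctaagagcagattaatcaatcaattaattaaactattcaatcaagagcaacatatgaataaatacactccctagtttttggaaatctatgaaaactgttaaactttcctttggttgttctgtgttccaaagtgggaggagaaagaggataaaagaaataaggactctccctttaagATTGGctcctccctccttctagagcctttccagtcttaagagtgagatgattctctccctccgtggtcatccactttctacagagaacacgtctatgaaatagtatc
The Heg1 window held 8 Sp1 boxes, of which 1 pair overlaps, and 2 NF-Y boxes. The Cd163 window held 1 NF-Y box and no Sp1 box. Neither window held the letters of the sterol regulatory element, the E-box or the PU box. Of 32851 windows of the same length, 35.7% held an Sp1 box, 37.4% an NF-Y box, 28.3% a PU box, 7.15% the E-box and 1.24% the sterol regulatory element. A match is only a description of the letters and says nothing of binding in these livers. Lyve1 and Ptprb are named without a window.

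The first question was how the 4 genes stood in TgSREBP-1a liver against wild type. They were higher in TgSREBP-1a on each of the 5 probe sets, with no overlap between the arrays, and the median over the 4 genes was 0.77 on the log2 scale (each gene by its brighter probe set) against -0.01 over all 7542 genes. Arrays were likewise apart and higher for 19.0% of all probe sets. Of the 5 probe sets, 3 were called higher, a call needing 1.5-fold and an adjusted p below 0.05, where 1.36% of all probe sets were. Because the genes were chosen on this contrast, nothing is read from that count.

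Lyve1, the hyaluronan receptor, read 5.49 and 5.32 (log2 values) on the TgSREBP-1a arrays, against 4.78 and 4.75 on the wild type arrays. The TgSREBP-1a pair lay wholly above wild type, and the log2 fold change was 0.64 ± 0.10 (limma standard error, n = 2 arrays each), or 1.56-fold. Ptprb on its brighter probe set read 7.77 and 7.63 in TgSREBP-1a, against 7.30 and 7.09 in wild type, a log2 fold change of 0.50 ± 0.18 (1.42-fold). The dimmer probe set read 5.34 and 5.41 in TgSREBP-1a and 4.98 and 5.25 in wild type, a log2 fold change of 0.26 ± 0.11. The phosphatase gene was thus higher on both probe sets, by the smallest amounts among the 4 genes.

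Heg1, the endothelial receptor, read 8.30 and 8.02 (log2 values) in TgSREBP-1a liver, against 6.97 and 6.83 in wild type liver. Its pairs were the farthest apart, and its log2 fold change of 1.26 ± 0.18 corresponds to 2.40-fold. Cd163, the hemoglobin scavenger receptor, read 5.71 and 5.80 in TgSREBP-1a, against 4.82 and 4.88 in wild type. Its log2 fold change was 0.91 ± 0.15 (1.87-fold), with duplicates that lay within 0.1 of each other in either pool. With 1 array of either pool left out, the fold changes kept their sign and ranged from 0.55 to 0.72 for Lyve1, from 1.12 to 1.40 for Heg1 and from 0.86 to 0.95 for Cd163. Ptprb ranged from 0.40 to 0.61 on its brighter probe set and from 0.13 to 0.40 on its dimmer. The count of 3 became 1 without either wild type array, 0 without the first TgSREBP-1a array and 2 without the second.

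**Figure D1:**
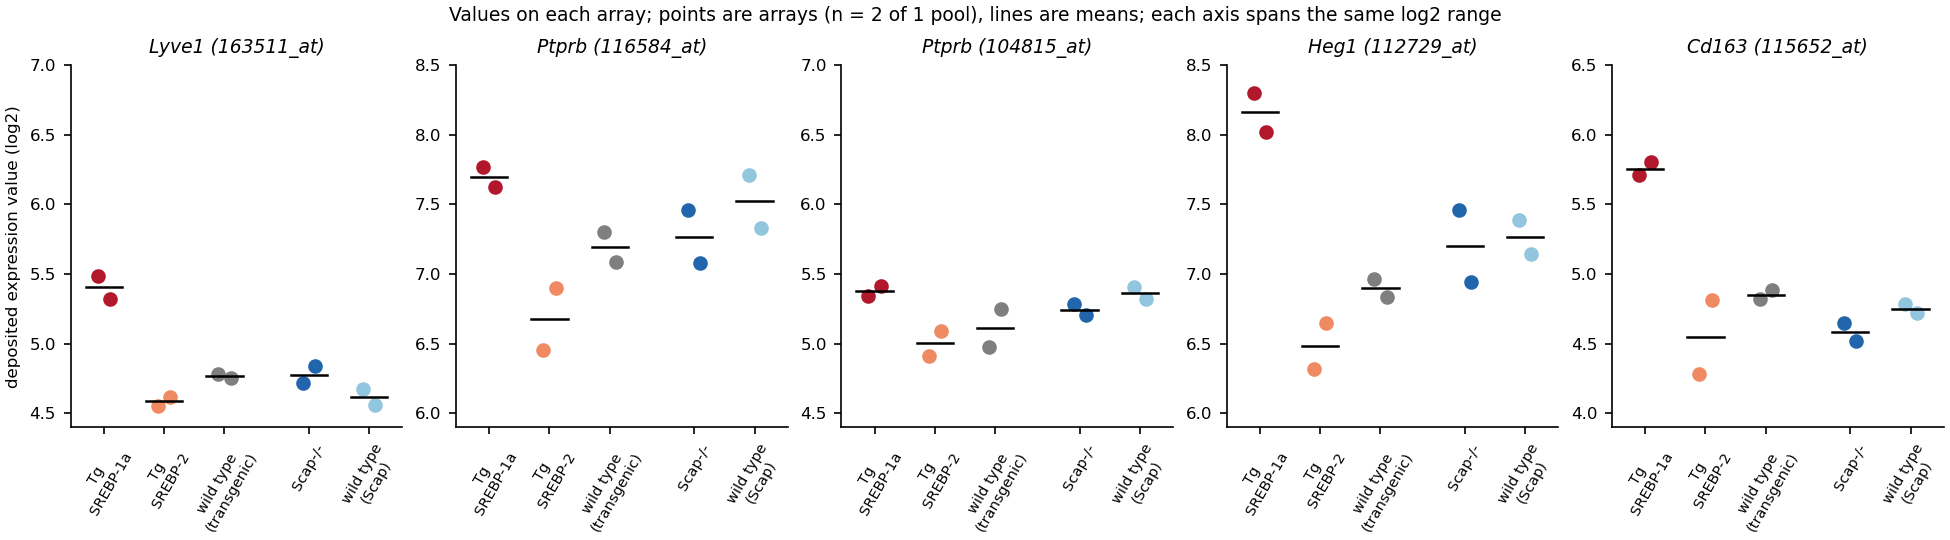
Deposited log2 expression value (vertical axis) of each of the 5 probe sets on each of the 10 arrays, by group; points are arrays, lines are means of the 2 arrays of a pool, and each panel spans the same log2 range. The TgSREBP-1a pair is the highest on the Lyve1, Heg1 and Cd163 panels without overlap with any other group, while on both Ptprb panels it overlaps the wild type pair of the Scap study.

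TgSREBP-2 liver was set against the same wild type pool, so the values share those 2 arrays. On 4 of 5 probe sets the TgSREBP-2 pair lay wholly below wild type, where 24.4% of all probe sets did, and the dimmer Ptprb probe set overlapped. None of the 5 passed the call in TgSREBP-2, where 0.161% of all probe sets were called lower and 0.338% higher. Lyve1 read 4.55 and 4.62 in TgSREBP-2 (log2 fold change -0.18 ± 0.10). Ptprb read 6.46 and 6.90 (-0.51 ± 0.18) on the brighter probe set and on the dimmer 4.91 and 5.09 (-0.11 ± 0.11). Heg1 read 6.32 and 6.65, a log2 fold change of -0.42 ± 0.18 against wild type. Cd163 read 4.28 and 4.81 (-0.30 ± 0.15), the second array only 0.008 below the wild type pair.

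These values leaned on the first TgSREBP-2 array, which read lower than the second on all 5 probe sets. Without that array the log2 fold changes were -0.15 for Lyve1, -0.29 and -0.02 for the brighter and the dimmer Ptprb probe set, -0.25 for Heg1 and -0.04 for Cd163. Without the second array, the one closest to wild type over all probe sets, they were -0.21 for Lyve1, -0.74 and -0.20 for the Ptprb probe sets in the same order, -0.58 for Heg1 and -0.57 for Cd163. The dimmer Ptprb probe set also depended on the wild type pair, and its value was 0.03 without the second wild type array.

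Set directly against TgSREBP-2, TgSREBP-1a was higher on all 5 probe sets without overlap, where 25.3% of all probe sets were, and 4 of the 5 were called higher, where 1.18% of all were (0.677% were called lower and 1.86% in either direction, and 14.7% passed an unadjusted p under 0.05). The comparison shares its arrays with the choice of the genes and is a description only. The log2 fold changes were 0.82 ± 0.10 for Lyve1 (1.77-fold), 1.02 ± 0.18 for Ptprb on its brighter probe set (2.02-fold) and 0.37 ± 0.11 on its dimmer, 1.68 ± 0.18 for Heg1 (3.20-fold) and 1.21 ± 0.15 for Cd163 (2.31-fold). For Heg1 this was the 11th highest of the 12411 values. Without the first TgSREBP-2 array the values were 0.79 for Lyve1, 0.79 for Ptprb (brighter probe set), 1.51 for Heg1 and 0.95 for Cd163. Without the second they were 0.85 for Lyve1, 1.24 for Ptprb (brighter probe set), 1.84 for Heg1 and 1.47 for Cd163. The dimmer Ptprb probe set had 0.28 without the first and 0.47 without the second. The count of 4 became 3 without either TgSREBP-1a array or without the first TgSREBP-2 array, the lost call each time being that of Ptprb.

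**Figure D2:**
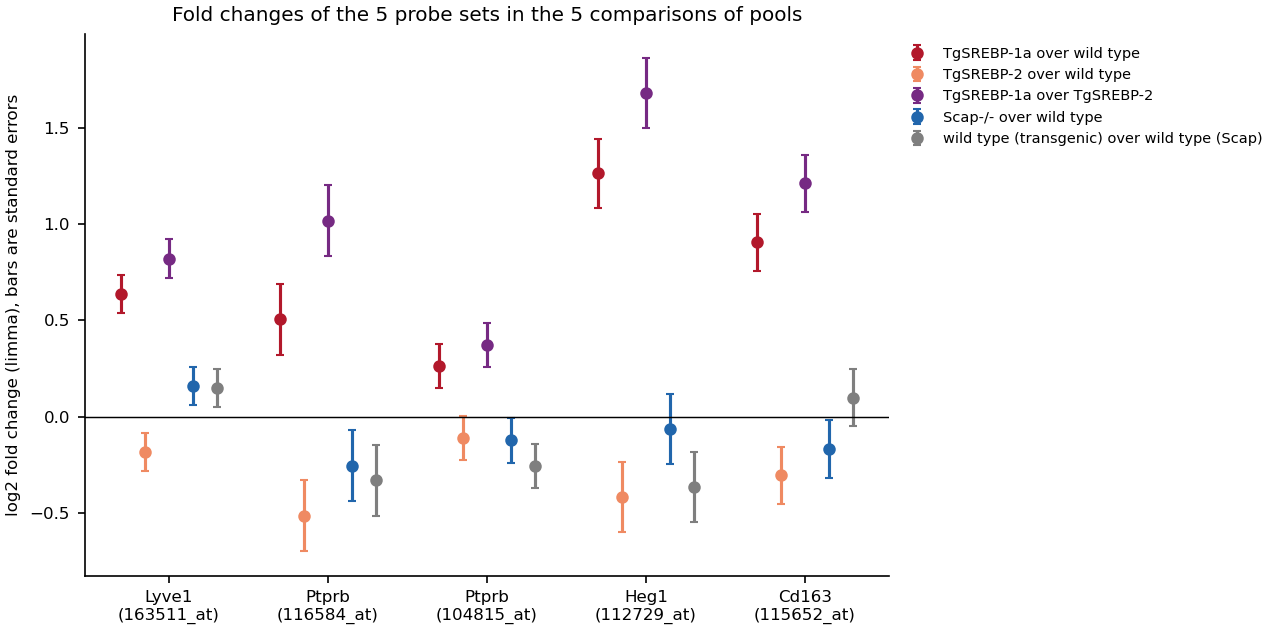
Log2 fold change (vertical axis) of each of the 5 probe sets in each of 5 comparisons between pools; bars are limma standard errors with n = 2 arrays per group. Values of TgSREBP-1a over wild type lie between 0.26 and 1.26, those of TgSREBP-2 over wild type between -0.51 and -0.11, and those of Scap-/- over wild type between -0.25 and 0.16.

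Loss of SCAP, in arrays that had no part in the choice of the genes, gave no call on any of the 5 probe sets (limma, Benjamini-Hochberg over 12411 probe sets), where 0.0161% of all probe sets were called higher and 0.258% lower. At an unadjusted p under 0.05, 0 of the 5 passed, where 7.74% of all did. Arrays lay apart on 1 of the 5 in the higher direction and on 2 in the lower, where 20.0% and 14.4% of all probe sets did. Lyve1 read 4.72 and 4.84 (log2 values) in Scap-/- liver, against 4.68 and 4.56 in its wild type liver. The pairs did not overlap, but the log2 fold change of 0.16 ± 0.10 had an adjusted p of 0.70 in limma and a 95% interval from -0.06 to 0.38.

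Ptprb on the brighter probe set read 7.46 and 7.08 in Scap-/-, against 7.71 and 7.33 in wild type, with overlap (log2 fold change -0.25 ± 0.18, interval -0.66 to 0.15, limma adjusted p = 0.73). On the dimmer it read 5.28 and 5.20 in Scap-/- and 5.41 and 5.32 in wild type, a log2 fold change of -0.12 ± 0.11 (limma adjusted p = 0.78). Heg1 read 7.46 and 6.94 in Scap-/- and 7.39 and 7.14 in wild type, so that the Scap-/- arrays enclosed the wild type pair. Its log2 fold change was -0.06 ± 0.18 (interval -0.47 to 0.34, limma adjusted p = 0.94). Cd163 read 4.65 and 4.52 in Scap-/-, against 4.79 and 4.72 in wild type, a log2 fold change of -0.17 ± 0.15 (interval -0.50 to 0.16, limma adjusted p = 0.76). The intervals allow falls of Heg1 to 0.72 of the wild type level and rises to 1.26-fold. With 1 array left out, Heg1 ranged from -0.32 to 0.19 on the log2 scale, turning positive without Scap-/- array 2 or without array 1 of its wild type, and none of the 5 probe sets was called. Lyve1 then ranged from 0.10 to 0.22, Cd163 from -0.23 to -0.11 and the Ptprb probe sets from -0.44 to -0.06 (brighter) and from -0.17 to -0.08 (dimmer).

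The wild type pools of the studies, which differ in feeding, age, injections and breeding, were compared as a description, since 1 of them belongs to the contrasts of the choice. None of the 5 probe sets was called between them, where 0.153% of all probe sets were called higher and 0.355% lower in the transgenic study's pool (0.508% in all, with 9.7% at an unadjusted p under 0.05). The pairs lay apart on all 5, with 2 higher and 3 lower in that pool, where 24.5% and 17.4% of all probe sets did so. Heg1 was lower in that pool by log2 -0.36 ± 0.18, and Ptprb by -0.33 ± 0.18 on the brighter and -0.25 ± 0.11 on the dimmer probe set. Lyve1 (0.15 ± 0.10) and Cd163 (0.10 ± 0.15) had small values of the other sign. With 1 array left out the signs held, with ranges from -0.49 to -0.24 for Heg1, from -0.52 to -0.14 for the brighter and from -0.39 to -0.12 for the dimmer Ptprb probe set, from 0.09 to 0.21 for Lyve1 and from 0.06 to 0.13 for Cd163.

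Ordered by group mean, TgSREBP-1a came first and TgSREBP-2 last for every probe set. For Lyve1 the mean log2 values were 5.41 in TgSREBP-1a, 4.78 in Scap-/-, 4.77 in wild type of the transgenic study, 4.62 in wild type of the Scap study and 4.58 in TgSREBP-2. The Lyve1 arrays of Scap-/- overlapped those of the transgenic study's wild type, and those of the Scap study's wild type overlapped TgSREBP-2. For Heg1 the means were 8.16 in TgSREBP-1a, 7.26 in wild type of the Scap study, 7.20 in Scap-/-, 6.90 in wild type of the transgenic study and 6.48 in TgSREBP-2, with overlap only among the middle 3. For the brighter Ptprb probe set the order was the same, with 7.70, 7.52, 7.27, 7.19 and 6.68, and only TgSREBP-2 stood apart from its neighbour. For Cd163 the means were 5.76 in TgSREBP-1a, 4.85 in wild type of the transgenic study, 4.75 in wild type of the Scap study, 4.58 in Scap-/- and 4.55 in TgSREBP-2, of which the last pair overlapped.

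Over the 10 arrays the pairs that varied most alike were Lyve1 with Cd163 (Pearson r = 0.91) and the brighter Ptprb probe set with Heg1 (0.90). Lyve1 and the same Ptprb probe set had 0.61, and the 2 Ptprb probe sets had 0.82 with each other. These values describe 10 arrays of 5 pools and rest largely on the TgSREBP-1a arrays on which the genes were chosen.

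Whether other markers of the same cells stood with them was asked with lists of genes measured on these arrays. Of 36 listed markers of sinusoidal endothelium 14 were measured, and of 51 of Kupffer cells and macrophages only 8. The defining Kupffer cell genes Clec4f, Vsig4, Marco and Adgre1 were not analysed here, so the label of Cd163 as a Kupffer cell gene was little checked here. Of the 14 sinusoidal genes 0 were called in TgSREBP-1a by limma, where 2.18% of all probe sets were called in either direction. At an unadjusted p under 0.05, 2 of the 14 passed, where 10.3% of all probe sets did. The median log2 fold change was 0.08. In TgSREBP-2 0 were called by limma (0.5% of all probe sets), with a median of -0.09. There 2 passed an unadjusted p under 0.05, where 7.92% of all probe sets did. In Scap-/- 0 were called (0.274% of all), with a median of -0.10. There 1 passed an unadjusted p under 0.05, where 7.74% of all probe sets did. The corresponding medians over all genes were -0.01, -0.02 and 0.01. In TgSREBP-1a against TgSREBP-2 0 of the 14 were called, with a median of 0.13. At an unadjusted p under 0.05, 5 of them passed there, where 14.7% of all probe sets did. RMA values have no zero, so no marker can be read as absent.

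Stab2, the main hyaluronan clearance receptor of sinusoidal endothelium, read 8.66 and 8.45 in TgSREBP-1a, against 8.52 and 8.38 in wild type, with overlap (log2 fold change 0.10, limma adjusted p = 0.94). Ehd3, a membrane traffic protein of that endothelium, read 8.30 and 7.97 in TgSREBP-1a and 7.89 and 7.78 in wild type (0.30, limma adjusted p = 0.58). Stab1, the related scavenger receptor, had 0.01, and Maf, a transcription factor of the sinusoid, had 0.32 (limma adjusted p = 0.94). Stab1, Bmp2, a ligand that sinusoidal cells release to control hepcidin, and Adgrf5, an adhesion receptor, were picked after their values were seen. Bmp2 had a log2 fold change of 0.66 in TgSREBP-1a (limma adjusted p = 0.23) and Adgrf5 0.58 (limma adjusted p = 0.28), neither passing. The other Adgrf5 probe set had 0.19. In the other direction lay Ltbp4 (-0.19), Wnt2 (-0.19), Nr2f2 (-0.12) and Dnase1l3 (-0.03), none called. The summed linear signal of the 14 genes was 1382 to 1515 on the TgSREBP-1a arrays, 1174 to 1188 in TgSREBP-2 and 1264 to 1324 in wild type, and 1114 to 1269 in Scap-/- against 1253 to 1431 in its wild type. The sum thus stood higher in TgSREBP-1a and lower in TgSREBP-2 than in wild type. Much of both shifts lay in the bright Ehd3 and Maf, each at -0.37 in TgSREBP-2 and called in neither line. Of the 14 genes 10 had a value above 0 in TgSREBP-1a and 4 in TgSREBP-2, where 46.2% and 44.0% of all genes did. The part of the sum in the values of the 4 genes was not tested.

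Of 64 listed genes of general endothelium 30 were measured, and 1 rose in TgSREBP-1a, where 1.36% of all probe sets did. Rasgrp3, an exchange factor for Ras and Rap, read 5.88 and 5.82 in TgSREBP-1a and 5.18 and 4.92 in wild type (log2 fold change 0.80 ± 0.11, limma adjusted p = 0.0018), with 0.47 on its other probe set. Against TgSREBP-2, too, Rasgrp3 was higher in TgSREBP-1a (0.76 ± 0.11, limma adjusted p = 0.0036), as was Rapgef5, a Rap exchange factor, at 0.62 ± 0.12 (limma adjusted p = 0.020). Rapgef5 was no longer called without the first TgSREBP-1a array or without either TgSREBP-2 array, nor Rasgrp3 in that comparison without the first TgSREBP-1a array. At an unadjusted p under 0.05, 9 of the 30 passed in TgSREBP-1a, where 10.3% of all probe sets did, and the median of the 30 was 0.08. Between the lines 15 of the 30 passed that threshold, where 14.7% of all probe sets did, with a median of 0.20. The TgSREBP-1a arrays lay wholly above TgSREBP-2 for 18 of the 30, where 25.3% of all probe sets did. They lay wholly below for 4, and the share of all probe sets doing so is not given here. In TgSREBP-2 and in Scap-/- 0 were called by limma (0 and 1 at an unadjusted p under 0.05, where 7.92% and 7.74% of all probe sets passed), with medians of -0.03 and 0.01. Their summed linear signal was 3320 to 3362 in TgSREBP-1a, 2968 to 3001 in TgSREBP-2 and 3041 to 3084 in wild type. Much of the rise of that sum in TgSREBP-1a lay in the bright Epas1, picked after its value was seen. Epas1 read 9.04 and 8.73 in TgSREBP-1a against 8.31 and 8.05 in wild type (0.70, not called, limma adjusted p = 0.20). Between the wild type pools Ece1, the endothelin-converting enzyme, was higher in the transgenic study by 0.82 ± 0.14 (limma adjusted p = 0.032), a call lost without any 1 of the 4 arrays.

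Of the 8 measured Kupffer cell and macrophage genes, 1 rose in TgSREBP-1a (1.36% of all probe sets), with a list median of 0.07. At an unadjusted p under 0.05, 2 of the 8 passed there, where 10.3% of all probe sets did. Ccl24, an eotaxin, read 8.13 and 7.82 in TgSREBP-1a against 7.24 and 7.42 in wild type (log2 fold change 0.65 ± 0.13, limma adjusted p = 0.029). That call ended without either wild type array or the first TgSREBP-1a array. The dim Cybb, picked after its value was seen, read 5.90 and 5.60 in TgSREBP-1a against 4.90 and 5.01 in wild type. Its log2 fold change of 0.80 ± 0.22 was the largest of the list but was not called (limma adjusted p = 0.12). The other Cybb probe set had 0.49. In the same comparison the brightest gene of the list, Slc40a1, had -0.27, Hmox1 -0.20 and Ctsc -0.11, none called. The dim Timd4 had 0.07. Of the 8 genes 5 had a value above 0, where 46.2% of all genes did. In TgSREBP-2 and in Scap-/- 0 of the 8 were called by limma, with medians of -0.09 and -0.11. At an unadjusted p under 0.05, 2 and 0 passed, where 7.92% and 7.74% of all probe sets did. The list's summed signal was 729 to 954 in TgSREBP-1a, 684 to 718 in TgSREBP-2 and 678 to 798 in wild type, with overlap between TgSREBP-1a and wild type.

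Markers of other liver cells were set beside these. Of 11 measured hepatocyte genes 3 fell in TgSREBP-1a, where 0.814% of all probe sets did, namely the complement chains C8a (-2.60 ± 0.24, limma adjusted p = 0.00018) and C8b (-2.22 ± 0.16) and the secreted Fetub (-1.44 ± 0.13), and the list median was -0.42. The summed hepatocyte signal was 9813 to 10729 in TgSREBP-1a, 9344 to 15003 in TgSREBP-2 and 14518 to 16564 in wild type. TgSREBP-1a lay below wild type without overlap, while the range of TgSREBP-2 overlapped both. The brightest gene in that sum, Apoa1, makes up much of it and was not called in TgSREBP-1a (-0.42, limma adjusted p = 0.72). Apoa1 read 13.32 and 12.22 (log2 values) on the TgSREBP-2 arrays, so the wide range there rests mostly on this gene. In Scap-/- the summed signal was 12570 to 14861, against 15304 to 17231 in its wild type, also without overlap. The 4 genes had log2 fold changes from -0.25 to 0.16 there, none called, and any link to that sum was not tested. Of 10 measured genes of stellate cells and fibroblasts 0 were called in TgSREBP-1a by limma (median 0.08). There 2 passed an unadjusted p under 0.05, where 10.3% of all probe sets did. The summed signal of the 10 genes was 1190 to 1285 in TgSREBP-1a and 1066 to 1111 in wild type. Whether the share of hepatocyte RNA takes part in the values of the 4 genes was not tested.

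**Figure D3:**
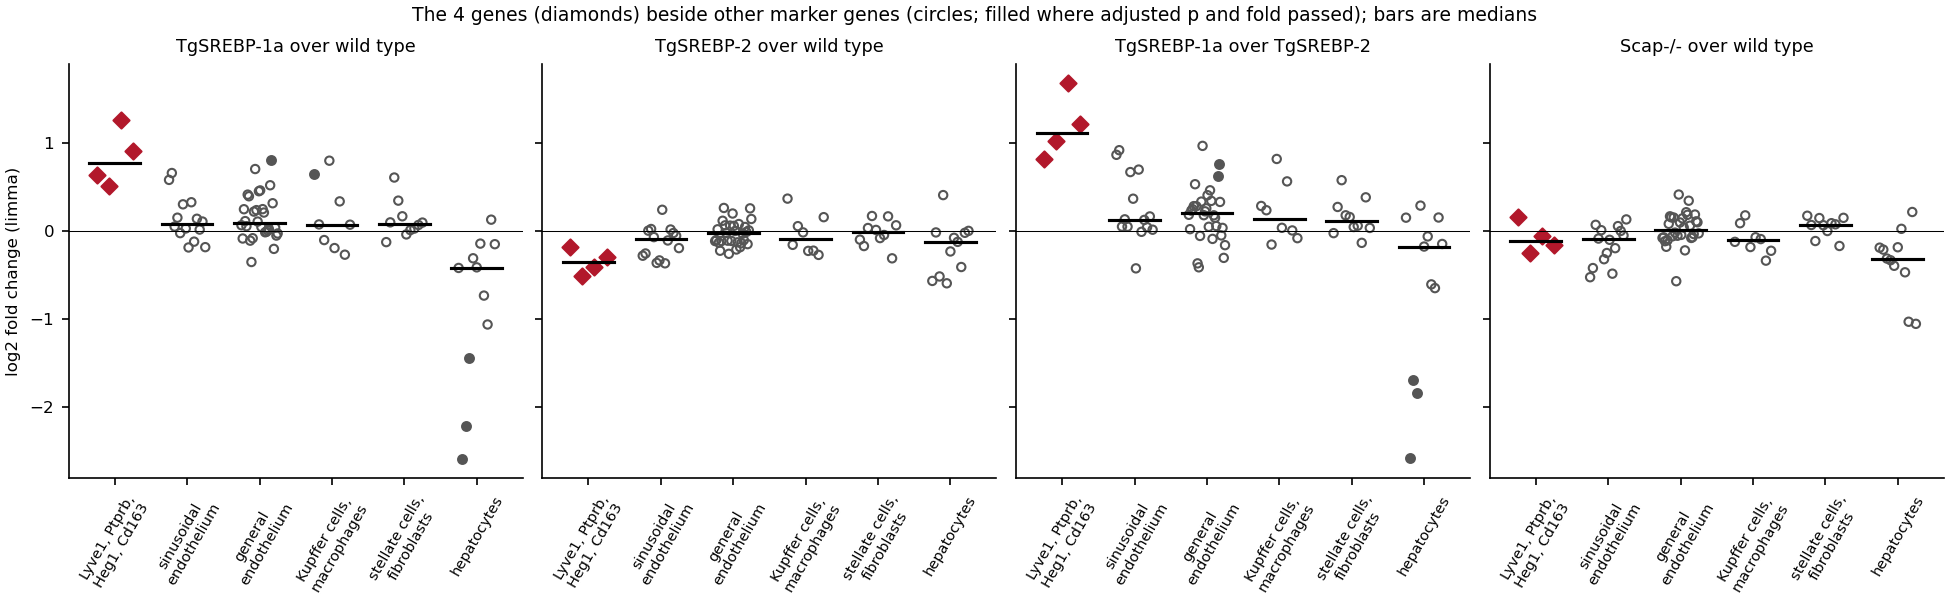
Log2 fold change (vertical axis, limma) of Lyve1, Ptprb, Heg1 and Cd163 (diamonds, brighter probe set) beside other markers of 5 cell types (circles, 1 per gene; filled where adjusted p was under 0.05 and the change at least 1.5-fold) in 4 comparisons; bars are medians. In TgSREBP-1a over wild type the 4 genes have a median of 0.77, and the 14 sinusoidal, 30 endothelial and 8 macrophage markers medians of 0.08, 0.08 and 0.07.

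Partners of each gene were described next. Around Lyve1, 6 of 21 listed hyaluronan genes were measured and 0 were called in any of the 5 comparisons by limma. At an unadjusted p under 0.05, 2 passed in TgSREBP-1a (10.3% of all probe sets), 1 in TgSREBP-2 (7.92%) and 0 in the others. The brightest of the 6, Habp4, Stab2 and Hyal1, a hyaluronidase, had log2 fold changes of 0.00, 0.10 and -0.34 in TgSREBP-1a. Cd44, another hyaluronan receptor picked after its value was seen, had 0.33. Around Ptprb, 8 genes of angiopoietin, VE-cadherin and VEGF signalling were measured and 0 were called in any comparison by limma. At an unadjusted p under 0.05, 1 passed in TgSREBP-1a against wild type (10.3% of all probe sets) and 1 against TgSREBP-2 (14.7%). The brightest of the 8, the kinase gene Src, the transcription factor Foxo1 and the adaptor Dok2, had log2 fold changes of 0.05, -0.15 and 0.02 in TgSREBP-1a. The 8 genes ranged from -0.72 (Grb14, limma adjusted p = 0.19) to 0.41 (Pik3r1, limma adjusted p = 0.70). Tek and Cdh5, which encode the known targets of VE-PTP, were not analysed here.

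Around Heg1, 10 genes of the CCM complex and its surroundings were measured, again with 0 calls in any comparison by limma. At an unadjusted p under 0.05, 2 passed in Scap-/- (7.74% of all probe sets) and 1 between the wild type pools (9.7%). Krit1, whose protein HEG1 holds at the membrane, was picked for that role after its value was seen. It had -0.06 in TgSREBP-1a and 0.02 in Scap-/-, and Ccm2 had 0.01 and 0.02. Also among the brightest, Rapgef1 read 7.36 and 7.33 in TgSREBP-1a against 7.49 and 7.40 in wild type. Map2k5 read 8.78 and 9.70 in Scap-/- against 7.79 and 9.17 in its wild type, with overlap. The 10 log2 fold changes ranged from -0.15 to 0.13 in TgSREBP-1a and from -0.42 to 0.76 in Scap-/-. Around Cd163, 11 genes of hemoglobin, heme and iron handling were measured. In TgSREBP-1a 1 was called higher and 1 lower, where 1.36% and 0.814% of all probe sets were. In TgSREBP-2 1 was called higher and 1 lower, where 0.338% and 0.161% of all were. Blvrb, a biliverdin reductase, rose in TgSREBP-1a by 0.98 ± 0.13 (limma adjusted p = 0.0020), reading 9.42 and 9.24 there and 8.40 and 8.30 in wild type. Its wild type level was itself lower in the transgenic than in the Scap study by log2 -1.05 ± 0.13 (limma adjusted p = 0.0076), a call lost without the first Scap-study array or either transgenic-study array. Steap4, a metalloreductase, fell in TgSREBP-1a (-0.78 ± 0.15) and in TgSREBP-2 (-0.89 ± 0.15), calls that ended without either wild type array, the first also without the second TgSREBP-1a array and the other also without either TgSREBP-2 array. The transferrin receptor Tfrc rose 2.83-fold in TgSREBP-2 (limma adjusted p = 0.016), a call lost without any 1 of the 4 arrays, and was lower in TgSREBP-1a than in TgSREBP-2 by log2 -1.38 ± 0.23. Hmox1, the heme oxygenase that acts after uptake by Cd163, was picked for that role after its value was seen. It was dim, with a change of -0.20 in TgSREBP-1a that was not called.

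Of 12 measured scavenger receptor genes 0 rose and 2 fell in TgSREBP-1a, where 1.36% of all probe sets rose and 0.814% fell. Scara5, a ferritin receptor, read 7.01 and 7.04 there against 8.30 and 8.07 in wild type (-1.16 ± 0.15, limma adjusted p = 0.0016), and Scarb2, a lysosomal receptor, fell by 0.75 (limma adjusted p = 0.015). The Scarb2 call ended without the first wild type array or either TgSREBP-1a array. Cd163 was chosen on this comparison, so its rise cannot be weighed against the calls of that list.

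The genes most like each of the 4 over the 10 arrays were taken among 942 probe sets with 1 symbol whose group means spanned at least 0.6 on the log2 scale. For Lyve1 they were Cemip2, a cell-surface hyaluronidase (Pearson r = 0.97, on its dimmer probe set), the splicing regulator Mbnl3 (0.96), Tm4sf4, Hebp2 and the lactosylceramide synthase B4galt6, the last with 0.95. For Ptprb they were Slain2, a microtubule protein (0.98), Zwint, the integrin chain Itga9, 4930402H24Rik and the ubiquitin ligase Hace1 (0.95). For Heg1 they were Arap2, a regulator of Arf GTPases (0.99), the alanine transaminase Gpt2 (0.98), Rapgef5 (0.94), the myosin Myo10 and the semaphorin Sema6d (0.93). For Cd163 they were Lratd2 (0.98), Ogfrl1, Nudcd1, the splicing regulator Mbnl2 and Hebp2 (0.94). Of these 20 entries only Rapgef5 and Cemip2 stood on any of the lists. The brighter Cemip2 probe set did not follow Lyve1 closely. It read 5.61 and 5.60 in TgSREBP-1a, 5.56 and 5.20 in its wild type, and 5.60 and 5.41 in wild type of the Scap study. The log2 fold changes of Arap2 were 0.71 in TgSREBP-1a, -0.23 in TgSREBP-2 and -0.12 in Scap-/-, beside 1.26, -0.42 and -0.06 for Heg1.

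**Figure D4:**
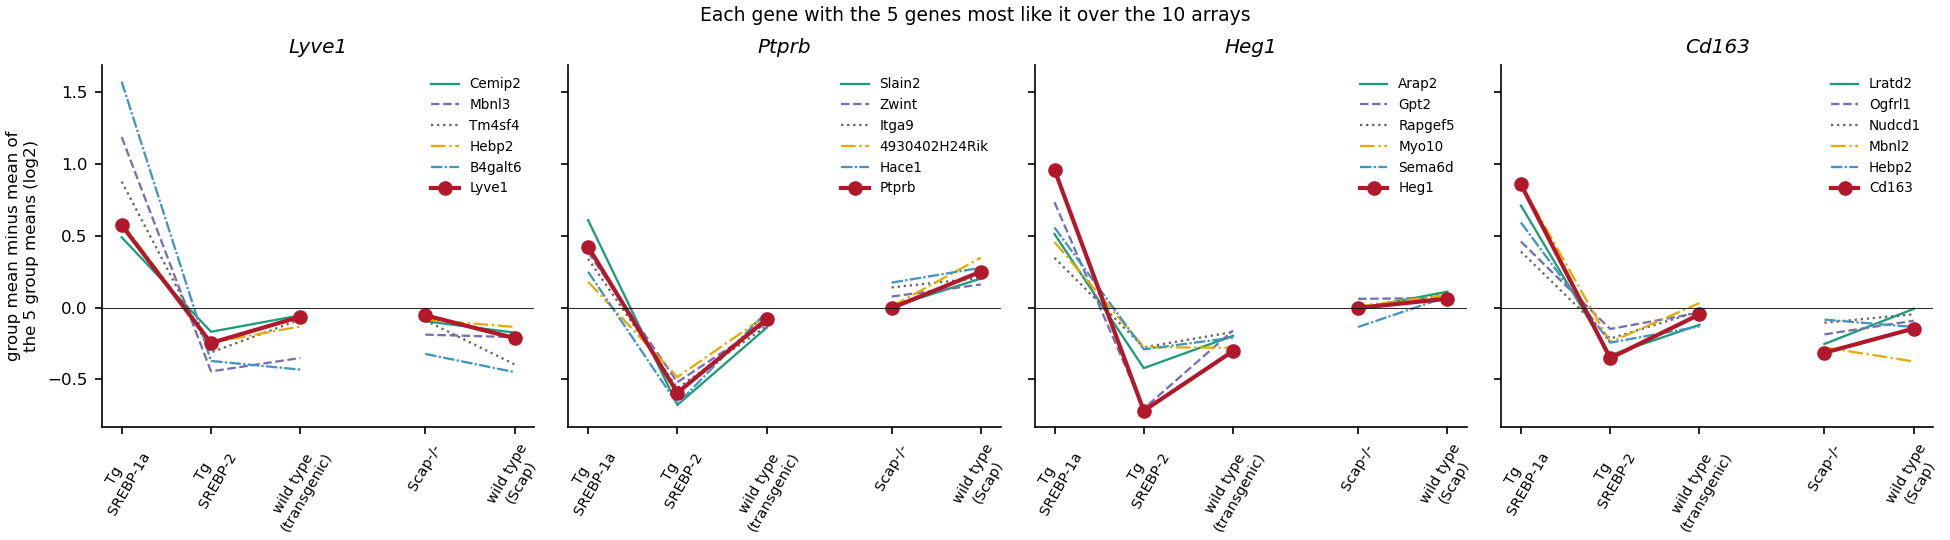
Group mean minus the mean of the 5 group means (vertical axis, log2) of Lyve1, Ptprb, Heg1 and Cd163 (thick lines with points) and of the 5 genes with the highest Pearson correlation to each over the 10 arrays (thin lines). In every panel the thick line is highest in TgSREBP-1a and lowest in TgSREBP-2, and for B4galt6 and Mbnl3 the TgSREBP-1a mean stands farther above the others than that of Lyve1.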

How the data were processed

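Duplicate hybridisations of 1 pool of liver RNA per group (5 groups, 10 arrays) were measured. The deposited values are log2 expression values made with RMA, per the submitters' processing notes, with no version given. RMA corrects background, equalises the arrays' distributions and summarises probes, and compresses changes of dim probe sets. The study's design text also names a scanner software, whose values were not analysed here. Of 12477 probe sets 66 array controls were left out. The platform annotation gave 10581 probe sets 1 symbol, 178 several and 1652 none, and a RefSeq table (GRCm38.p6) changed 0 symbols.

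The 10 arrays entered a single linear model, with a mean for each group, in limma 3.58.1 (lmFit, eBayes; R 4.3.3), with two-sided Benjamini-Hochberg values over 12411 probe sets. A call needs an adjusted p under 0.05 and 1.5-fold. Precision is limited by the number of arrays, the standard error of log2 differences having a median of 0.115. The procedure was tested on simulated data. In 18 lists (588 entries, 558 genes, 151 measured) each gene was represented by its brightest probe set. Listed genes were named if called in a comparison (at most 6 a list and comparison), otherwise the 3 brightest. Genes outside this rule were added after their values were seen, such as Stab1, Bmp2, Adgrf5, Epas1, Cybb, Cd44, Grb14, Pik3r1, Krit1, Hmox1 and Apoa1. Slc40a1, Ctsc, Timd4, Ltbp4, Wnt2, Nr2f2 and Dnase1l3 were also named outside it. Further called genes of the hepatocyte and pancreatic lists were added in the same way. The 5 most alike per gene by Pearson r over the 10 arrays were also named. The members and lists were chosen with earlier results of these data known.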

Additional observations from a re-analysis of the deposited data

Results flagged for a closer look

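Lyve1, Ptprb on its brighter probe set, Heg1 and Cd163 were flagged by the order of their arrays. Every TgSREBP-1a array read above and every TgSREBP-2 array below the wild type pair. Of all probe sets 19.0% met the first condition and 24.4% the second, and the share meeting both was not counted. For Cd163 the gap between the TgSREBP-2 and wild type arrays was only 0.008. The log2 differences between the lines were 0.82, 1.02, 1.68 and 1.21 in that order. They were not tested, since the genes were chosen on them.

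Among listed genes the limma test of the difference between the lines passed for 12, where 1.86% of all probe sets were called. The calls of Rapgef5, Rasgrp3, Anxa13, Tfrc, Scara5 and Oasl1 each ended with at least 1 of the arrays left out, and those of the other 6 held in every alternative run. Rasgrp3 (0.76), Rapgef5 (0.62) and Oasl1 (0.62) stood higher in TgSREBP-1a. Lower in TgSREBP-1a were the hepatocyte genes C8a (-2.58), Fetub (-1.85) and C8b (-1.70), the receptors Tfrc (-1.38) and Scara5 (-0.96), and Anxa13 (-0.61) of the bile duct list. The pancreatic genes Cpb1 (-5.30), Cela3b (-4.47) and Ctrc (-1.72) were lower as well.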

How the results depend on the processing

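The fold changes of the 5 probe sets were recomputed with only 4 arrays, the hybridisation number as a replicate block, an intensity trend, centring on array medians, only probe sets above the median level, and each array left out. Of 210 such values 3 turned their sign, none of them a called value: the dimmer Ptprb probe set in TgSREBP-2, within the spread of duplicates, at 0.03 without the second wild type array, and Heg1 in Scap-/- at 0.19 without the second Scap-/- array and 0.06 without array 1 of its wild type (range with 1 array left out -0.32 to 0.19). Lyve1, Cd163 and the dimmer Ptprb probe set had no value above the median level. The lists' counts moved in 82 of 1700 cases and their medians by over 0.1 in 59 of 850. Over all probe sets, 270 were called in TgSREBP-1a against wild type (142 to 193 with 1 array left out), 62 in TgSREBP-2 (25 to 124), 231 between the lines (87 to 384), 34 in Scap-/- (10 to 68) and 63 between the wild type pools (14 to 120). With only 4 arrays there were 5 calls in Scap-/- and 13 between the wild type pools. With the replicate block there were 101 in TgSREBP-2, 91 in Scap-/- and 145 between the wild type pools, and none of the 5 probe sets changed its call. The cause of these moves was not tested. Same-numbered arrays deviated together with a correlation of 0.41 in TgSREBP-1a, 0.06 in TgSREBP-2, 0.11 between the lines, 0.60 in Scap-/- and 0.47 between the wild type pools, but the labels tie the number to no batch.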

Other observations

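Other listed cells and processes were measured beside the 4 genes. Of 13 interferon-stimulated genes only Oasl1 rose in TgSREBP-1a (0.91 ± 0.10, limma adjusted p = 0.00042), where 1.36% of all probe sets did. Bst2 was lower in wild type liver of the transgenic study than of the Scap study (-1.30 ± 0.21, limma adjusted p = 0.028). Of all probe sets 0.355% were called lower there. The Bst2 call was lost without either transgenic-study array or the first Scap-study array. The list median between those pools was -0.52, and in Scap-/- it was -0.21 with 0 called by limma. At an unadjusted p under 0.05, 2 of the 13 passed in Scap-/-, where 7.74% of all probe sets did. Anxa13, 1 of 4 measured bile duct genes, rose in TgSREBP-2 by 1.04 ± 0.12 (limma adjusted p = 0.0021), where 0.338% of all probe sets rose.

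The pancreatic genes Cpb1 and Cela3b, 2 of 3 measured, fell in TgSREBP-1a (-4.67 and -3.84) and in Scap-/- (-3.21 and -1.89). Of all probe sets 0.814% and 0.258% were called lower in these comparisons. In the other direction, Ctrc rose in TgSREBP-2 (1.51, limma adjusted p = 8.9e-05), where 0.338% of all probe sets did. Cela3b was higher in wild type liver of the transgenic study than of the Scap study (1.61, limma adjusted p = 0.0031). There 0.153% of all probe sets were called higher. Recruited macrophages (3 measured genes), lymphocytes (5), red cells and platelets (4) and cell division (7) had 0 calls in any of the 5 comparisons by limma. At an unadjusted p under 0.05 the macrophage list had 1 in TgSREBP-1a against wild type, 1 against TgSREBP-2 and 1 between the wild type pools. Red cells and platelets had 1 between the transgenic lines, cell division 1 in Scap-/-, and lymphocytes 0. Of all probe sets 10.3% passed in TgSREBP-1a against wild type and 14.7% between the lines. Between the wild type pools 9.7% did, and in Scap-/- 7.74%. The neutrophil list was not analysed here.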
